A study of Mus musculus with 48 samples.

Results

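The aged comparison of the study set tibiae of 3 old male C57Bl6J mice on caloric restriction (CR) beside those of 3 old mice with free access to food (ad libitum, AL). Members were the 6 aged mice among the 12 mice with a column of values, chosen by the age and diet in the column names and not by any measured value. All mice were kept alone in cages and acclimatized to the NIH-31 control diet. Aged CR mice then received the NIH-31/NIA modified diet, enriched in micronutrients, for 8 weeks, with 10% less food in week 1, 20% less in week 2 and 40% less from week 3, and aged AL mice stayed on the control diet. Both aged groups were 15 to 18 months old by the series' design text. The methods give this as the age at the start of CR, before the 8 weeks of diet, so tissue was collected at a higher age. Young mice on either diet, 3 in each group and 10 weeks old by the same text, entered the same model and served as the comparison between ages. Their 10 weeks also lie within the range that the methods give for the start of CR. According to the methods the right tibia of mice was cut and fixed with a plate within the diet period. The sources do not say which leg was sequenced. CR and the micronutrient-enriched diet came together, so their parts cannot be told apart.

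RNA came from whole tibia, ground after removal of adhering muscle and connective tissue, and therefore from bone and marrow cells together. Each gene was measured as FPKM, the reads of a gene scaled to its length and to the size of the library, which the authors quantile normalized, and each mouse had 1 value per gene. In such a bulk sample, fewer cells of a type and less RNA per cell cannot be told apart. Of 29801 genes in the table, 13590 averaged 1 FPKM or more across the 12 mice and were tested on log2(FPKM + 1) with limma. A difference on this scale understates the change of a gene with few FPKM. Sequencing depth is unknown, because FPKM carry no counts, and errors stand for differences between mice only.

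Caloric restriction is known to increase the fat cells of bone marrow in mice, in contrast to most other fat depots, which shrink. Marrow adipocytes store triglyceride in droplets coated by perilipins, take up fatty acids released by lipoprotein lipase, make others from acetyl-CoA, and secrete adipokines. The same marrow houses blood cell precursors, macrophages that clear red cells and handle iron, and the osteoblasts and osteoclasts that build and resorb bone.

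One mouse in each aged group stood apart from the others. On the log2 scale, AL mouse 14 differed from the other 2 AL mice by a root mean square of 0.435 and by more than 1 in 408 genes. CR mouse 5 differed by 0.378 and by more than 1 in 265 genes, and the other 4 aged mice lay between 0.298 and 0.362. Along the first principal component of the aged mice, with 32.3% of the variance, AL mouse 14 was alone at one end, and along the second, with 23.2%, CR mouse 5 was. Values are therefore given per mouse, in the order AL mice 13, 14 and 15, then CR mice 5, 6 and 7.

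**Figure D1:**
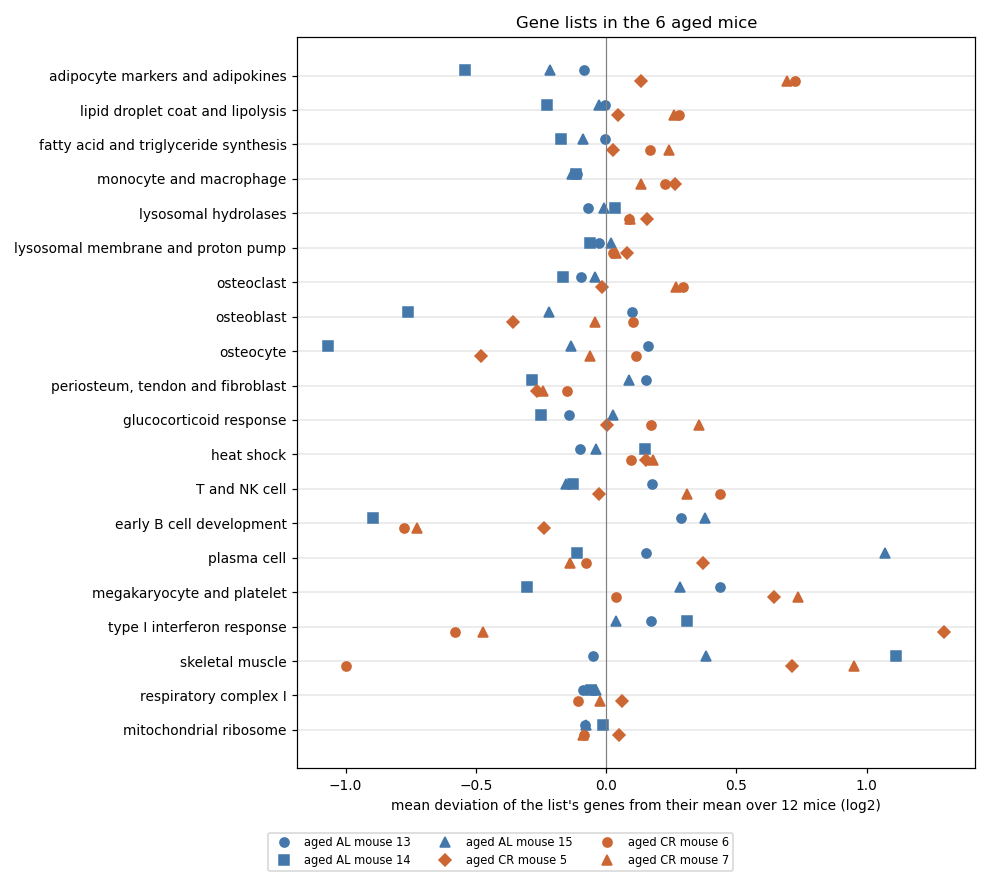
Mean deviation of 20 gene lists in the 6 aged mice (x axis, log2 units, 0 is the gene mean over all 12 mice; blue, AL; orange, CR; each symbol is 1 mouse). The adipocyte list ran from -0.54 to -0.09 in AL and from 0.13 to 0.72 in CR mice, whereas the type I interferon list put CR mouse 5 at 1.30 and the other CR mice at -0.58 and -0.47.

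No gene passed in aged mice. Of the 13590 genes, 0 had an adjusted p under 0.05 (limma, Benjamini-Hochberg; 0% of genes), and the smallest adjusted p was 0.198. At an unadjusted p under 0.05, limma gave 611 genes higher in CR (4.5%) and 438 lower (3.22%). All 4 groups shared 1 estimate of spread in this fit. Aged mice mostly lay farther from their group than young mice (root mean square 0.298 to 0.435 beside 0.243 to 0.301). The p-values of aged mice may therefore be too small. A fit of only the 6 aged mice gave 454 higher and 291 lower, and its smallest adjusted p was 0.893 (limma). The unequal-variance test on FPKM also gave 0 adjusted calls, and 273 genes higher and 214 lower (unadjusted p under 0.05). In 774 genes (5.7%) every CR mouse was above every AL mouse, and in 724 (5.33%) every CR mouse was below. These shares are the background for each count of a gene list, and the genes below are described by their values, since none is a call. The median log2 fold change of all tested genes was -0.004. Without AL mouse 14 and CR mouse 5, 49 genes passed, 18 of them higher and 31 lower. Without CR mouse 5 alone, 7 passed. With a quality weight per mouse, 193 did. Mice 14 and 5 were left out for their distance in these same values, which narrows the spread by choice, and the weights were drawn from these values too. Young calls rose from 9 to 161 without mice 14 and 5, though no young mouse was left out. Counts without these mice therefore describe the values and are not evidence of an effect of CR.

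Genes of adipocytes were higher in the CR mice. Of the 20 adipocyte markers and adipokines tested, 13 were higher (unadjusted p under 0.05) and none was lower, against 4.5% and 3.22% of all genes, and in 9 the CR and AL mice did not overlap. Their median log2 fold change was 0.77, and 19 of the 20 had a fold change above 0. Over all 25 listed genes the summed FPKM was 845, 498 and 747 in the AL mice and 890, 1466 and 1413 in the CR mice, so CR mouse 5 was just above the highest AL mouse and the other CR mice were far above. Without mice 14 and 5, 16 of the 20 were higher (unadjusted p under 0.05) and 7 passed over all genes. These mice were left out by their distance, so the counts carry the limit given above. The list was written with results of these mice known, so it is not independent evidence of its direction.

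The list holds secreted products. Rbp4, the carrier of retinol in blood (chr19:38116629-38125281, minus strand, GRCm38), was at 2.86, 2.08 and 1.90 FPKM in the AL mice and at 5.60, 11.5 and 10.5 FPKM in the CR mice. The groups were apart, with CR mouse 5 nearest to the AL mice, and the log2 fold change was 1.60 (SE 0.22, limma adjusted p = 0.198). Retn, the adipokine resistin (chr8:3655770-3660110, plus strand), was at 1.88, 0.729 and 1.98 FPKM in AL and 4.34, 8.64 and 8.22 FPKM in CR, a log2 fold change of 1.67 (SE 0.28, limma adjusted p = 0.198). AL mouse 14 held the lowest and CR mouse 6 the highest value. Adipoq, which encodes adiponectin, was at 62.3, 17.2 and 49.6 FPKM in AL and 57.8, 92.9 and 85.3 FPKM in CR. Here the groups overlapped, as AL mouse 13 was above CR mouse 5, and the log2 fold change was 1.01 (SE 0.37, limma adjusted p = 0.576).

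Other members serve the uptake and storage of lipid. Lpl, the lipase that frees fatty acids from circulating triglyceride (chr8:68880491-68907448, plus strand), was at 33.8, 37.7 and 31.8 FPKM in AL and 49.0, 52.8 and 59.4 FPKM in CR, a log2 fold change of 0.63 (SE 0.11, limma adjusted p = 0.198). It was among the tightest of the adipocyte genes, with SDs of 2.97 and 5.27 FPKM around means of 34.4 and 53.7 FPKM (n = 3 mice each). Adig, a small adipocyte protein needed for fat storage (chr2:158502612-158508198, plus strand), was at 3.37, 1.47 and 2.49 FPKM in AL and 6.0, 8.02 and 8.29 FPKM in CR. The ranges of both genes were apart. Cidec, which fuses lipid droplets, was at 9.67, 4.28 and 7.66 FPKM in AL and 10.8, 19.5 and 22.3 FPKM in CR, and Plin1, the droplet coat perilipin, at 6.82, 4.03 and 5.59 FPKM and 6.17, 15.3 and 12.9 FPKM. Cidec stayed apart by a small margin and Plin1 overlapped, in both cases through CR mouse 5. Of 16 genes of the droplet coat and lipolysis, 4 were higher and 0 lower (unadjusted p under 0.05), with a median log2 fold change of 0.18. The lipases Pnpla2 and Lipe, which open the stored triglyceride, were among them at log2 fold changes of 0.48 and 0.42 (SE 0.16 and 0.17).

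Synthesis genes were mixed. Of 21 such genes for fatty acids and triglycerides, 5 were higher and 2 lower (unadjusted p under 0.05), with a median of 0.09. Fasn, fatty acid synthase (chr11:120805846-120824547, minus strand), was at 4.35, 4.18 and 3.94 FPKM in AL and 6.08, 6.64 and 7.11 FPKM in CR, a log2 fold change of 0.56 (SE 0.11, limma adjusted p = 0.251). Neither mouse 14 nor mouse 5 stood apart for this gene, and the groups did not overlap. Scd1, the desaturase that puts the double bond into stearate, was at 91.1, 40.7 and 77.6 FPKM in AL and 80.6, 238 and 233 FPKM in CR. CR mouse 5 lay within the AL range, the other CR mice were above it, and the log2 fold change was 1.31 (SE 0.38, limma adjusted p = 0.464). Thrsp, a regulator of lipogenesis, was at 8.45, 2.40 and 8.28 FPKM in AL and 12.2, 24.6 and 24.4 FPKM in CR. In the opposite direction, Gpam, the mitochondrial enzyme of the first step of glycerolipid synthesis, was at 1.43, 1.48 and 1.09 FPKM in AL and 0.660, 0.846 and 0.592 FPKM in CR, with no overlap and a log2 fold change of -0.46 (SE 0.11, limma adjusted p = 0.374).

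The adipogenic regulators differed less than the markers. Pparg was at 10.2, 15.2 and 9.96 FPKM in AL and 11.5, 18.3 and 16.4 FPKM in CR, and Cebpa at 18.7, 17.7 and 19.5 FPKM and 17.9, 22.7 and 23.3 FPKM. Both overlapped between groups, with log2 fold changes of 0.36 (SE 0.18) and 0.17 (SE 0.12). Without mice 14 and 5, Pparg had a log2 fold change of 0.72 and passed over all genes (limma), under the same limit of mice left out by their distance. Tbp, a component of the general transcription machinery used in the study as a reference gene, was at 5.78, 5.68 and 4.80 FPKM in AL and 5.29, 7.59 and 5.37 FPKM in CR, a log2 fold change of 0.13 (SE 0.15). Only CR mouse 6 was outside the AL range of Tbp, and its direction turned without that mouse (log2 fold change -0.016). Igfbp3, a binding protein of insulin-like growth factors (chr11:7206086-7213923, minus strand), was at 3.0, 1.66 and 2.25 FPKM in AL and 4.56, 8.96 and 9.44 FPKM in CR, a log2 fold change of 1.35 (SE 0.23, limma adjusted p = 0.198). Cdo1, which oxidizes cysteine on the way to taurine, was at 8.04, 3.03 and 6.11 FPKM in AL and 11.6, 23.9 and 20.4 FPKM in CR. In both genes AL mouse 14 was the lowest of the 6 and CR mouse 5 the lowest of the CR mice. Among the 20 adipocyte markers, AL mouse 14 was the lowest in 12, beside 26.0% of all tested genes.

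**Figure D2:**
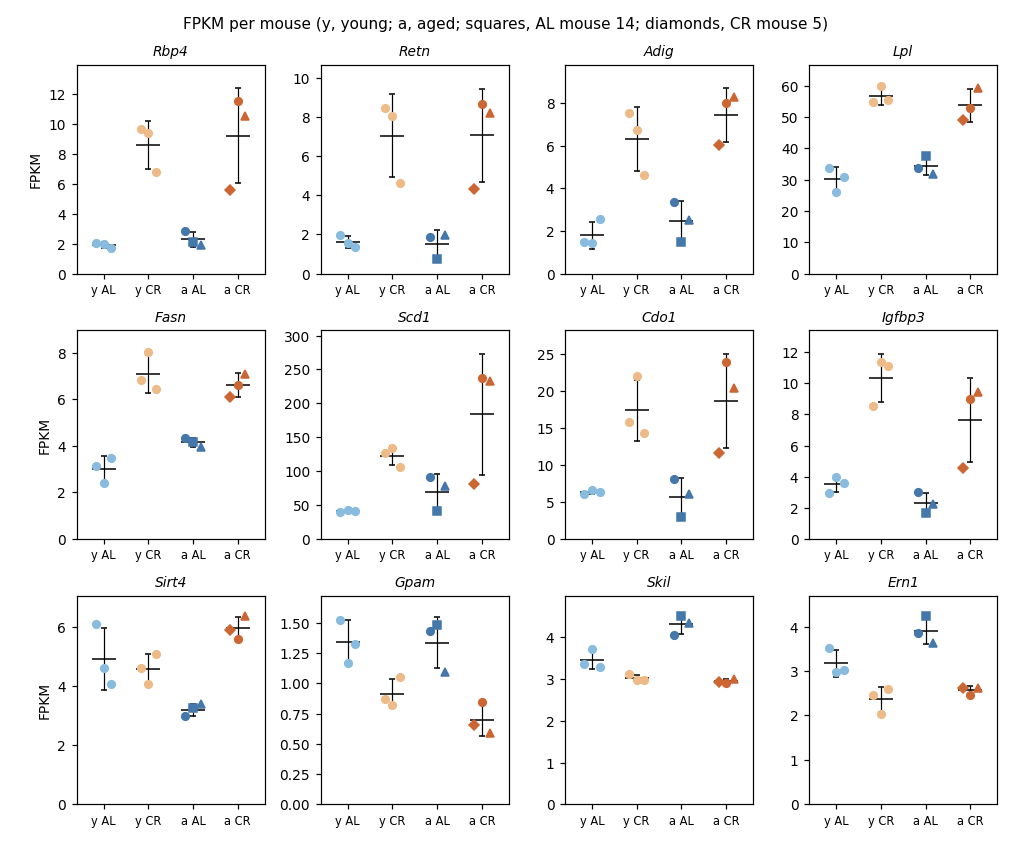
FPKM of 12 genes in each mouse (y axes, linear from 0; columns, the 2 young and then the 2 aged groups, AL before CR; symbols, mice; black bars, mean and SD of 3 mice). For Rbp4, Retn, Adig and Scd1 the diamond of CR mouse 5 lies below the other CR mice, while for Fasn, Sirt4, Skil and Ern1 it lies with them.

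Macrophage genes were also higher in the CR mice, and by the list value mouse 5 did not lag. Of 25 monocyte and macrophage genes, 11 were higher and 2 lower (unadjusted p under 0.05), against 4.5% and 3.22% of all genes, and in 9 every CR mouse was above every AL mouse. The median log2 fold change was 0.38. The list value was -0.11, -0.12 and -0.13 in the AL mice and 0.27, 0.22 and 0.13 in the CR mice, so the groups were apart and neither mouse 14 nor mouse 5 was nearest to the other group. Summed FPKM, which the most abundant genes set, were 5378, 5067 and 4626 in AL and 4930, 6840 and 5585 in CR and overlapped. By this sum CR mouse 5 was the lowest CR mouse and below AL mice 13 and 14. Without mice 14 and 5, 13 were higher and 3 lower (unadjusted p under 0.05), with a median of 0.35.

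Cd68, a membrane protein of macrophage lysosomes (chr11:69664213-69666153, minus strand), was at 61.4, 67.7 and 61.8 FPKM in AL and 100, 89.6 and 88.8 FPKM in CR. The groups were far apart relative to their spread, with a log2 fold change of 0.54 (SE 0.10, limma adjusted p = 0.233). Spic, the transcription factor of the macrophages that recycle iron from red cells, was at 25.6, 24.7 and 22.8 FPKM in AL and 39.2, 32.1 and 29.9 FPKM in CR. Hmox1, the heme-degrading enzyme of the same cells, was at 216, 106 and 156 FPKM in AL and 227, 300 and 313 FPKM in CR, and both genes were without overlap. Apoe, the lipid carrier made by macrophages, was at 518, 465 and 505 FPKM in AL and 571, 782 and 787 FPKM in CR. Maf, a transcription factor of macrophages and T cells that is not in the list, was at 9.58, 6.83 and 8.5 FPKM in AL and 15.0, 12.3 and 13.7 FPKM in CR, a log2 fold change of 0.66 (SE 0.11, limma adjusted p = 0.198). The 2 lower genes of the list were the monocyte receptors Cx3cr1, at 5.02, 7.47 and 5.14 FPKM in AL and 5.63, 3.46 and 3.01 FPKM in CR, and Ccr2, at 27.3, 45.6 and 29.7 FPKM and 28.6, 25.5 and 20.5 FPKM, named after their values were seen. In both, AL mouse 14 was the highest of the 6 and the groups overlapped.

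Lysosomal enzymes were higher by less. Of 35 lysosomal hydrolases, 8 were higher and 1 lower (unadjusted p under 0.05), 8 were above AL in every CR mouse and 0 below, and the median log2 fold change was 0.13. In the 46 genes of the lysosomal membrane and proton pump, which include Cd68, the counts were 4 higher, 0 lower and 8 without overlap, with a median of 0.06. Ctsb, cathepsin B, was at 216, 208 and 200 FPKM in AL and 260, 267 and 252 FPKM in CR, a log2 fold change of 0.32 (SE 0.08, limma adjusted p = 0.370). Lgmn, the asparagine-specific protease legumain, was at 59.7, 61.9 and 54.3 FPKM in AL and 96.7, 69.5 and 75.5 FPKM in CR, and Ctsd, cathepsin D, at 447, 453 and 390 FPKM and 495, 571 and 571 FPKM. All 3 were apart between groups, with CR mouse 5 the highest for Lgmn and the lowest CR mouse for Ctsd. Naglu, a glycosidase of heparan sulfate, and Npc2, which hands cholesterol out of the lysosome, had log2 fold changes of 0.38 and 0.26 (SE 0.12 and 0.08), and the proton pump subunits Atp6v1c1 and Atp6v1b2 of 0.20 and 0.17 (SE 0.07 each).

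The promoters of lysosomal genes are known for an E-box of the letters TCACGTGA, which Tfeb and related factors bind. RefSeq promoters on GRCm38.p6 were matched by symbol for 28 of the hydrolases and 35 of the membrane and pump genes. In the 250 bases before the gene start, on either strand, TCACGTGA was found in 3 of the 28 (10.7%) and 3 of the 35 (8.57%), beside 168 of 9146 tested genes with a promoter (1.84%). Each match also holds the general E-box CACGTG, found in 35.7%, 25.7% and 9.88% in the same order. Stretches before the starts of Ctsd and Gla, the lysosomal alpha-galactosidase, are shown with TCACGTGA in capitals, since they are the matching genes of these lists with the smallest p in the direction of CR.
Ctsd (chr7:142387864-142387981, minus strand): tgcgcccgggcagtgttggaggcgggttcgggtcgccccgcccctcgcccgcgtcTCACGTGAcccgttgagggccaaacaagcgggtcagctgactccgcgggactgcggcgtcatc
Gla (chrX:134601171-134601255, minus strand): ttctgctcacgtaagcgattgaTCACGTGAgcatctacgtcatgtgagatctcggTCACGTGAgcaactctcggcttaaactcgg
A match is a description of letters. Among the genes higher in CR at an unadjusted p under 0.05 the share with TCACGTGA was 1.67%, near that of all genes.

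Some genes of bone resorption and of bone formation were higher in the CR mice, and AL mouse 14 was low in those of formation. Of 16 osteoclast genes, 5 were higher and 0 lower (unadjusted p under 0.05), with a median log2 fold change of 0.25. AL mouse 14 was the lowest of the 6 aged mice in 8 of the 16, beside 26.0% of all tested genes. CR mouse 6 was the highest in 9, beside 14.2% of all tested genes. Oscar, an immune-type receptor that costimulates osteoclasts, was at 1.46, 1.56 and 1.66 FPKM in AL and 2.93, 3.42 and 3.02 FPKM in CR, apart and with all mice close to their group, a log2 fold change of 0.69 (SE 0.15, limma adjusted p = 0.305). Src, a kinase needed for the ruffled border, was at 7.59, 4.31 and 7.58 FPKM in AL and 9.28, 7.89 and 10.5 FPKM in CR. Ctsk, the collagen-cleaving cathepsin K, was at 125, 125 and 183 FPKM in AL and 149, 296 and 248 FPKM in CR, and Acp5, the tartrate-resistant acid phosphatase, at 183, 258 and 237 FPKM and 229, 456 and 380 FPKM. In these 2 genes CR mice 6 and 7 were above all AL mice and CR mouse 5 was within their range.

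Of 22 osteoblast genes, 7 were higher and 0 lower (unadjusted p under 0.05), 4 were without overlap, and the median log2 fold change was 0.23. AL mouse 14 was the lowest of the 6 aged mice in 16 of the 22, against 26.0% of all tested genes, and its list value was -0.76 beside 0.10 and -0.22 in the other AL mice. Without mouse 14 the median was -0.005, with 3 higher and 4 lower. Alpl, the phosphatase of mineralizing cells, was at 12.5, 9.04 and 11.7 FPKM in AL and 12.7, 17.3 and 15.9 FPKM in CR. Pth1r, the receptor of parathyroid hormone, was at 9.87, 6.28 and 9.74 FPKM in AL and 11, 15.2 and 13.1 FPKM in CR. Both were without overlap, and the gap was set by CR mouse 5. Tnc, the matrix protein tenascin C, had a log2 fold change of 0.73 (SE 0.20, limma adjusted p = 0.406) and Ibsp, bone sialoprotein, of 0.70 (SE 0.24, limma adjusted p = 0.524). Bglap, which encodes osteocalcin and was chosen after its values were seen, was at 714, 111 and 382 FPKM in AL and 249, 177 and 199 FPKM in CR, with AL mouse 14 the lowest and the other AL mice the highest. Its near-identical neighbour Bglap2 can share reads with it, so both values are uncertain.

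Some matrix genes of periosteum, tendon and fibroblasts were lower in the CR mice. Of 20 tested, 7 were lower and 2 higher (unadjusted p under 0.05), and in 5 every CR mouse was below every AL mouse, beside 5.33% of all genes. The median log2 fold change was -0.24. The list as a whole overlapped between groups, with list values of 0.15, -0.29 and 0.09 in AL and -0.26, -0.15 and -0.24 in CR, so AL mouse 14 was the lowest of the 6. Summed FPKM also overlapped, at 454, 344 and 508 in AL and 397, 547 and 489 in CR. The 2 higher genes, Ctsk and Postn, are also in the osteoclast and osteoblast lists. Thbs4, a thrombospondin of tendon, was at 5.21, 2.78 and 3.62 FPKM in AL and 1.69, 1.80 and 1.74 FPKM in CR, so the CR mice lay within a narrow band below all AL mice, a log2 fold change of -0.80 (SE 0.18, limma adjusted p = 0.306). Wisp2, a secreted Wnt target also called Ccn5, was at 7.65, 14.5 and 7.63 FPKM in AL and 4.33, 5.62 and 4.84 FPKM in CR, with AL mouse 14 the highest. Col3a1, type III collagen, was at 13.5, 6.21 and 7.13 FPKM in AL and 4.26, 4.67 and 4.18 FPKM in CR, and Sfrp4, a secreted Wnt antagonist, at 14.2, 9.90 and 12 FPKM and 8.6, 8.34 and 8.07 FPKM. For Thbs4, Col3a1 and Sfrp4 the spread was in the AL mice, and AL mouse 14 was their lowest AL mouse. Without mice 14 and 5, 9 of the 20 were lower and 2 higher (unadjusted p under 0.05).

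**Figure D3:**
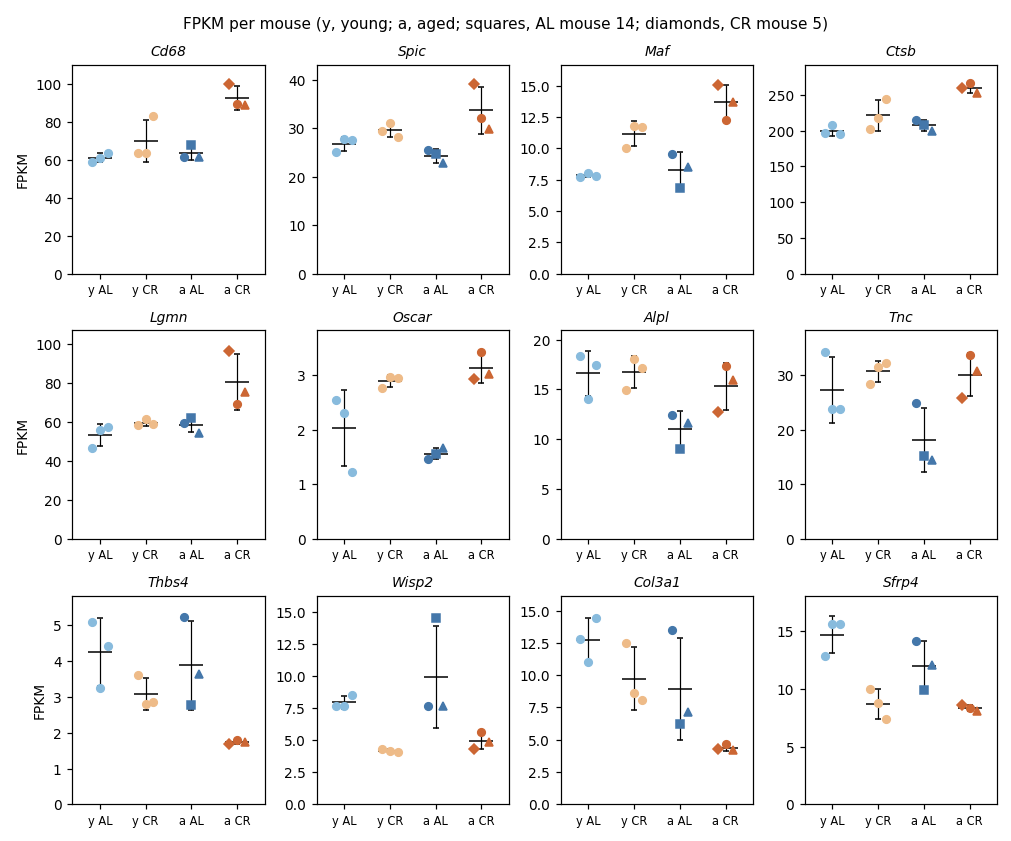
FPKM of 12 genes of macrophages, lysosomes, bone cells and matrix in each mouse (y axes, linear from 0; columns, the 2 young and then the 2 aged groups, AL before CR; symbols, mice; black bars, mean and SD of 3 mice). For Cd68 the aged CR mice lie at 88.8 to 100 FPKM and the aged AL mice at 61.4 to 67.7 FPKM, and for Thbs4 the aged CR mice lie at 1.69 to 1.80 FPKM below all others.

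Targets of the glucocorticoid receptor, which the adrenal steroid corticosterone activates in fasting rodents, were higher in CR. Of 21 tested, 8 were higher and 1 lower (unadjusted p under 0.05), and 4 were above and 1 below without overlap, with a median log2 fold change of 0.24. Sult1a1, a sulfotransferase, was at 11.9, 6.43 and 16.3 FPKM in AL and 22, 25.5 and 29.8 FPKM in CR, apart between groups, a log2 fold change of 1.17 (SE 0.24, limma adjusted p = 0.294). Tsc22d3, the leucine zipper protein GILZ, was at 36.6, 28.1 and 45.0 FPKM in AL and 46.9, 60.8 and 79.0 FPKM in CR, and Per1, also a clock gene, at 4.30, 4.21 and 5.79 FPKM and 6.37, 7.61 and 11.8 FPKM. In both, CR mouse 7 was the highest and CR mouse 5 the nearest to the AL mice. Klf15, a transcription factor of fasting metabolism, overlapped at 1.12, 0.402 and 0.837 FPKM in AL and 0.898, 1.94 and 3.08 FPKM in CR. Without AL mouse 14, 2 of the 21 were higher (unadjusted p under 0.05), and the median was 0.23.

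Some chaperone genes were higher and some genes of the unfolded protein response lower. Of 18 heat shock genes, 3 were higher and 0 lower (unadjusted p under 0.05), with a median of 0.10, and without mice 14 and 5 the count was 7. Hsph1, which resets Hsp70 by nucleotide exchange, was at 8.44, 11.7 and 10.2 FPKM in AL and 14.8, 17.6 and 14.6 FPKM in CR, with no overlap. Its partners Dnaja1 and Hspa8 had log2 fold changes of 0.26 and 0.37 (SE 0.09 and 0.16). Of 29 genes of the unfolded protein and integrated stress response, 4 were lower and 0 higher (unadjusted p under 0.05), with a median of -0.02 and 13 of 29 above 0. Its list values overlapped, at -0.06, 0.18 and 0.34 in AL and 0.19, 0.05 and 0.04 in CR. Ern1, the endoplasmic reticulum sensor IRE1 (chr11:106394650-106487852, minus strand), was at 3.86, 4.24 and 3.64 FPKM in AL and 2.63, 2.47 and 2.63 FPKM in CR, a log2 fold change of -0.46 (SE 0.09, limma adjusted p = 0.251). Atf6, a second such sensor, was at 5.23, 7.48 and 5.32 FPKM in AL and 4.62, 4.60 and 4.74 FPKM in CR. The CR mice of both genes lay close together and below all AL mice.

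The remaining genes with the smallest p had narrow groups, which a choice by p on the same values favours. Skil, a repressor of TGF-beta signaling (chr3:31095058-31122577, plus strand), was at 4.05, 4.51 and 4.35 FPKM in AL and 2.92, 2.91 and 3.01 FPKM in CR, a log2 fold change of -0.43 (SE 0.07, limma adjusted p = 0.198). Cbfb, the partner of the Runx factors, was at 22.4, 24.4 and 23.4 FPKM in AL and 17.3, 17.9 and 18.0 FPKM in CR, a log2 fold change of -0.38 (SE 0.08, limma adjusted p = 0.251). Dusp2, a phosphatase of MAP kinases, was at 6.51, 9.85 and 8.5 FPKM in AL and 5.14, 5.06 and 5.38 FPKM in CR. Neither AL mouse 14 nor CR mouse 5 stood apart in Skil and Cbfb, and the groups were separate in all 3. Also lower without overlap were BC035044, Tmem229b, Apol11a, the autophagy protein gene Wipi1 and Kmo, which hydroxylates kynurenine, at log2 fold changes of -0.54, -0.50, -1.31, -0.30 and -0.64. Higher without overlap were Rbm14, a coactivator and RNA-binding protein, Banp, a DNA-binding protein, Mgme1, a nuclease of mitochondrial DNA, and Pxdc1, at 0.43, 0.43, 0.38 and 0.56.

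Sirt4, the mitochondrial sirtuin that restrains glutamate dehydrogenase (chr5:115478010-115484725, minus strand), was at 2.99, 3.25 and 3.38 FPKM in AL and 5.89, 5.61 and 6.37 FPKM in CR. The 6 mice formed separate groups, with neither mouse 14 nor mouse 5 at an edge that set the gap, and the log2 fold change was 0.73 (SE 0.12, limma adjusted p = 0.198). Sirt4 was also chosen by its small p, which favours separate groups. In young mice, Sirt4 was at a mean of 4.93 ± 1.05 FPKM in AL and 4.59 ± 0.51 FPKM in CR (SD, n = 3), a log2 fold change of -0.07 (SE 0.12). Dus4l, a tRNA-modifying enzyme, was at 2.23, 2.41 and 2.40 FPKM in aged AL and 3.61, 3.37 and 3.34 FPKM in aged CR, a log2 fold change of 0.41 (SE 0.07, limma adjusted p = 0.198), beside -0.004 in young mice. The difference between ages was 0.80 for Sirt4 and 0.41 for Dus4l (limma unadjusted p = 0.000657 and 0.00159), and neither passed over all genes (limma adjusted p = 0.999 each). Of 20 genes of sirtuins and NAD metabolism, 2 were higher in aged CR at an unadjusted p under 0.05 and 0 lower.

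The effect of CR was not shown to differ with age for any gene. In the test of that difference, 0 genes had an adjusted p under 0.05 (limma, 0%), and the smallest adjusted p was 0.732. At an unadjusted p under 0.05, the effect was higher in aged than in young mice for 322 genes (2.37%) and lower for 253 (1.86%). Leaving out unnamed and immunoglobulin genes, the 5 smallest p on the higher side were those of Sirt4, Mllt11, H2-Q6, H2-Q5 and Dus4l, and on the lower side of Hyal2, Atf5, Ndufa4l2, Ankrd9 and Dpt. H2-Q5 and H2-Q6 are near-identical class I genes of the major histocompatibility complex and can share reads. The adipocyte list had a median log2 fold change of 0.98 in young and 0.77 in aged mice, with 1 of its 20 genes at an unadjusted p under 0.05 for the difference, and the macrophage list 0.14 and 0.38, also with 1 of its 25. The megakaryocyte and platelet list had a median of -0.33 in young and 0.34 in aged mice, and 9 of its 18 genes had a higher effect in aged mice at an unadjusted p under 0.05, beside 2.37% of all genes. Pf4, platelet factor 4, was at 563, 372 and 508 FPKM in aged AL and 725, 453 and 640 FPKM in aged CR, which overlap, with log2 fold changes of 0.33 in aged and -0.54 in young mice (SE 0.18 each). AL mouse 14 was the lowest of the aged mice in 17 of the 18 genes, beside 26.0% of all tested genes. CR mouse 5 was above every AL mouse in 16 of the 18, beside 24.1% of all tested genes. The median log2 difference of CR mouse 6 from the other 2 CR mice was -0.62 in this list. Without mice 14 and 5 the aged median was 0.01.

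**Figure D4:**
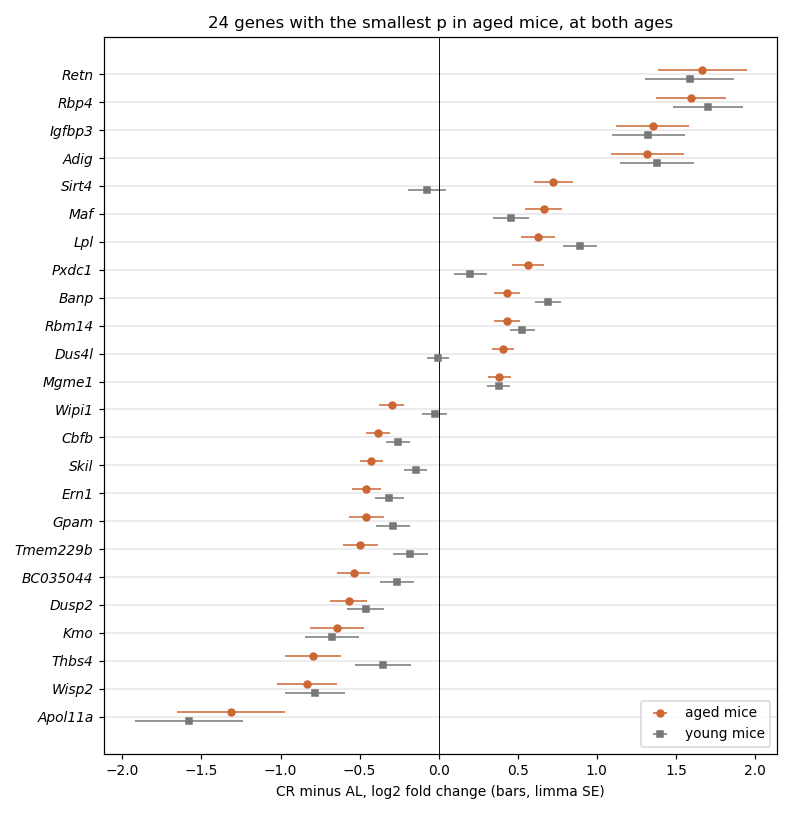
CR minus AL log2 fold change (x axis) of the 24 genes with the smallest p in aged mice, 12 in each direction, in aged mice (orange circles) and young mice (grey squares), with limma standard errors as bars. The genes were chosen on the aged values, so only the young values are free of the choice; Sirt4 and Dus4l lie at 0.73 and 0.41 in aged and at -0.07 and -0.004 in young mice.

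Early B cell genes separated the mice in another way. Their products include the surrogate light chain (Igll1 and Vpreb1), which pro-B cells show before a light chain is made, and the enzymes Rag1 and Dntt, which join and edit the receptor segments. Of 19 tested, 0 were higher and 5 lower in CR at an unadjusted p under 0.05, with a median log2 fold change of -0.26, and 17 had a fold change of 0 or below. The list value was 0.29, -0.90 and 0.38 in AL mice 13, 14 and 15 and -0.24, -0.78 and -0.73 in CR mice 5, 6 and 7. AL mouse 14 was thus the lowest of all 6, and CR mouse 5 the highest CR mouse. Without mouse 14, 16 of the 19 were lower (unadjusted p under 0.05), with a median of -0.53, and without mice 14 and 5, 14 were, of which 6 passed over all genes. These counts carry the limit given for mice left out by their distance.

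Igll1 was at 17.5, 0.777 and 14.4 FPKM in AL and 6.91, 0.144 and 0.194 FPKM in CR, and Dntt at 11.3, 3.14 and 10.5 FPKM and 6.09, 1.68 and 1.25 FPKM. Rag1 was at 3.08, 0.244 and 2.29 FPKM in AL and 1.07, 0.0325 and 0.0033 FPKM in CR. In all 3, AL mice 13 and 15 were the highest, CR mouse 5 next, and AL mouse 14 with CR mice 6 and 7 the lowest. Cd93, which marks immature B cells and also myeloid and endothelial cells, went a different way at 7.36, 7.95 and 7.28 FPKM in AL and 6.81, 5.44 and 5.23 FPKM in CR, with no overlap and no low value in mouse 14. Bach2, a B cell transcription factor, was at 1.43, 0.591 and 1.87 FPKM in AL and 0.705, 0.471 and 0.521 FPKM in CR.

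Among plasma cell genes the high mouse was AL mouse 15, the highest of the 6 in 12 of 14, beside 15.5% of all tested genes. The list value was 0.15, -0.11 and 1.07 in AL and 0.37, -0.08 and -0.14 in CR. Slamf7 was at 6.49, 6.93 and 12.9 FPKM in AL and 6.90, 3.46 and 3.74 FPKM in CR. Of 170 tested immunoglobulin variable segments, 2 were higher and 19 lower (unadjusted p under 0.05), and 1 was above and 25 below AL without overlap. Their summed FPKM was 5944, 4499 and 14065 in AL and 10763, 4486 and 4725 in CR, so the 2 highest mice were 1 of each group. The segments share near-identical sequence, and their single values are uncertain. Ighg1, the constant gene of IgG1, chosen after its values were seen, was at 296, 69.1 and 264 FPKM in AL and 60.7, 31.7 and 27.7 FPKM in CR, a log2 fold change of -2.19 (SE 0.59, unadjusted limma p = 0.00321). The other heavy chain constant genes tested overlapped between the groups. Of 20 T and NK cell genes, 6 were higher and 0 lower (unadjusted p under 0.05), with a median of 0.34, among them Lck, the kinase of T cell receptor signaling, and the adaptor Lat, at log2 fold changes of 0.45 and 0.48 (SE 0.18 and 0.15). Without AL mouse 14 the count was 2.

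Type I interferon genes showed CR mouse 5 most clearly. Interferon induces them as part of the antiviral defence, and they include the Oas enzymes, which sense double-stranded RNA, and Irf7, which amplifies the response. Of 32 tested, 0 were higher and 0 lower (unadjusted p under 0.05), and the median log2 fold change was -0.11. That count hides the order of the mice. CR mouse 5 was the highest of the 6 aged mice in 31 of 32 genes, beside 17.2% of all tested genes, and above every AL mouse in 31. CR mice 6 and 7 were both below every AL mouse in 27 of 32, beside 10.7% of all genes. The summed FPKM was 626, 630 and 536 in AL and 1368, 364 and 400 in CR.

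Irf7 was at 29.9, 31.8 and 24.2 FPKM in AL and 84.8, 12.4 and 14.5 FPKM in CR. Isg15, a ubiquitin-like modifier, was at 89.4, 127 and 65.4 FPKM in AL and 196, 35.3 and 44.9 FPKM in CR. Oas2 was at 4.85, 6.16 and 4.41 FPKM in AL and 27.6, 0.805 and 1.29 FPKM in CR. In all 3 the AL mice lay between CR mouse 5 above and CR mice 6 and 7 below. Without CR mouse 5 the median of the list was -0.66, 25 of 32 genes were lower (unadjusted p under 0.05), and 2 passed over all genes. In young mice the median was -0.49, and all 32 had a log2 fold change of 0 or below.

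Promoters of such genes are known for the interferon-stimulated response element, a pair of GAAA blocks with any 2 bases between them, which Irf factors bind. Of the 32, 21 were matched to a RefSeq promoter. In the 250 bases before the start, on either strand, 11 of the 21 held the element (52.4%), beside 310 of 9146 tested genes with a promoter (3.39%). Where the element repeats, matches can overlap each other. Stretches of 4 of the 11 are shown with the matches in capitals, from those in which CR mouse 5 was farthest above CR mice 6 and 7. Blocks of TTTC are the same element on the other strand.
Oas1a (chr5:120907526-120907600, minus strand): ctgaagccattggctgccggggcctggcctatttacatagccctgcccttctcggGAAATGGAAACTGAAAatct
Ifit1 (chr19:34640730-34640849, plus strand): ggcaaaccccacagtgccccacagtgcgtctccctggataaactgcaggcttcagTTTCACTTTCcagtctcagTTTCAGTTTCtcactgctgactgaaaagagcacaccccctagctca
Isg15 (chr4:156200832-156200951, minus strand): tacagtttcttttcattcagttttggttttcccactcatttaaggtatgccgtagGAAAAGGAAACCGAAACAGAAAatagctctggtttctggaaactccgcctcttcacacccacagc
Ifit3 (chr19:34583318-34583437, plus strand): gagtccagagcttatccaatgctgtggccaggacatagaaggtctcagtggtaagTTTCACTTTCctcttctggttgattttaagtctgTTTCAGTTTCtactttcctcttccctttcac
Oas1a was at 8.00, 9.47 and 5.69 FPKM in AL and 32.2, 2.06 and 3.95 FPKM in CR, and Ifit1, which binds viral RNA caps, at 3.45, 5.78 and 3.03 FPKM and 14.7, 1.25 and 1.69 FPKM.

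The genes farthest above the group in CR mouse 5, chosen by that distance, included some macrophage receptors. In the monocyte and macrophage list mouse 5 was the highest of the 6 in 7 of 25 genes, beside 17.2% of all tested genes. Cd209b, a lectin receptor of macrophages in lymphoid organs, was at 149 FPKM in CR mouse 5 and at 0.250 and 0.126 FPKM in CR mice 6 and 7, with 0.103, 0.027 and 0.107 FPKM in AL. Marco, a scavenger receptor, was at 310 FPKM beside 20.5 and 0.760 FPKM in the other CR mice and 1.31, 6.82 and 15.6 FPKM in AL. Folr2, a folate receptor of resident macrophages, was at 45.4 FPKM beside 0.830 and 3.66 FPKM. The 8 genes in which mouse 5 was farthest above its group were these 3, Cd209f, Apoc1, Oas2, Oas1g and Oas1a. Cd68, Spic and Ctsb were above AL in all 3 CR mice, and without mouse 5 the macrophage list had 11 genes higher and 4 lower (unadjusted p under 0.05).

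The genes farthest from the group in AL mouse 14 were chosen by that distance and are given as values. In the monocyte and macrophage list mouse 14 was the highest of the 6 in 8 genes and the lowest in 10 of 25. Over all tested genes it was the highest in 28.9% and the lowest in 26.0%. Prg2, the major basic protein of eosinophil granules, was at 57.4 FPKM in mouse 14 and at 654 and 690 FPKM in the other AL mice, and Epx, eosinophil peroxidase, at 3.03 beside 33.8 and 35.0 FPKM. Ear1, a ribonuclease of the same granules, was at 4.65 beside 99.7 and 113 FPKM. Prg2 was at 403, 802 and 338 FPKM in the CR mice. On the high side, Cd300e, a receptor of nonclassical monocytes, was at 49.5 FPKM in mouse 14 beside 0.963 and 1.09 FPKM. Fcgr4, an activating IgG receptor of the same cells, was at 346 beside 22.2 and 24.9 FPKM, and Saa3, an acute-phase protein, at 32.8 beside 0.412 and 1.38 FPKM. All 3 CR mice were far below AL mouse 14 for these 3 genes. Mature neutrophil genes were lowest in mouse 14 in 16 of 21, and genes of the marrow stromal niche in 16 of 22, beside 26.0% of all tested genes.

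**Figure D5:**
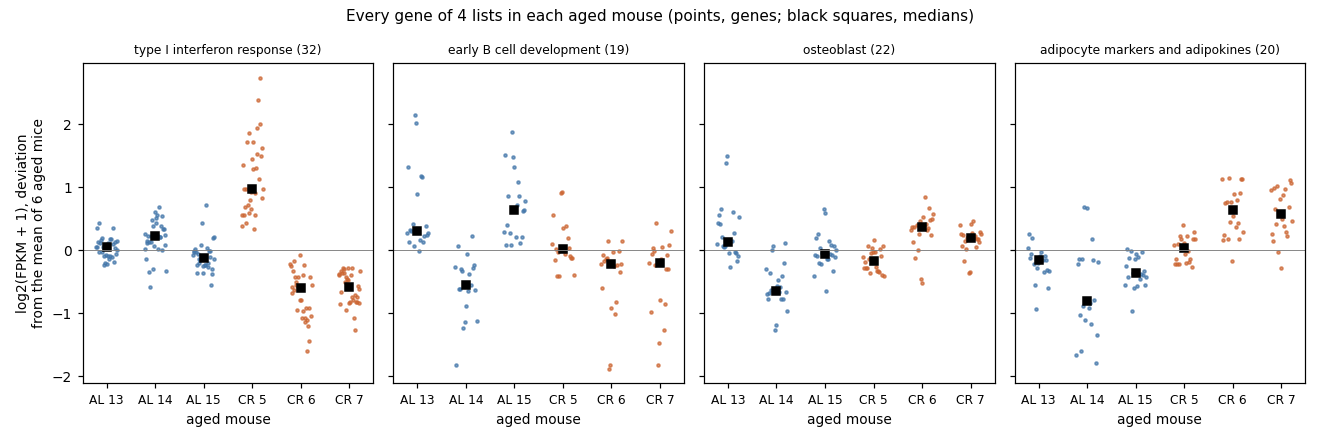
Deviation of each gene of 4 lists from its mean over the 6 aged mice (y axis, log2 units; each point is 1 gene, black squares are medians; blue, AL; orange, CR). Interferon genes are high in CR mouse 5 and low in CR mice 6 and 7, early B cell and osteoblast genes are low in AL mouse 14, and adipocyte genes are highest in CR mice 6 and 7.

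Mitochondrial and ribosomal genes were close between the groups. Of 37 genes of respiratory complex I and 38 of complexes II to V, 0 were higher and 0 lower (unadjusted p under 0.05) (limma), with medians of 0.04 and 0.03 and 0 adjusted calls. Of 49 mitochondrial ribosome genes, 0 were higher and 1 lower, with a median of 0.01, and of 57 cytosolic ribosome genes, 0 and 0, with a median of 0.01. In 40 mitochondrial carriers and import genes, 2 were higher and 1 lower. Log2 fold changes were above 0 in 29 of 37 complex I genes and 23 of 38 genes of complexes II to V. They were above 0 in 27 of 40 carriers and import genes, 26 of 49 mitochondrial and 32 of 57 cytosolic ribosome genes. Over all tested genes the share was 48.6%. CR mouse 5 was above every AL mouse in 25 of the 37 complex I genes and in 30 of the 49 mitochondrial ribosome genes, beside 24.1% of all genes, while CR mice 6 and 7 were both above in 2 and 2. The list value of complex I in CR mouse 5 was 0.06, so these are small shifts. Autophagy genes (1 higher and 1 lower of 29), cholesterol synthesis (1 and 1 of 20) and cell division (0 and 0 of 33) were likewise near or below the background. Fatty acid oxidation was split, with 2 higher and 2 lower of 20 (unadjusted p under 0.05). That was 10% in each direction, beside 4.5% and 3.22% of all genes, and the median was -0.004.

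Muscle genes differed between mice of the same group, although the labels describe removal of adhering muscle. Summed over 30 skeletal muscle genes, FPKM were 657, 1890 and 862 in AL and 1034, 296 and 1585 in CR, and all 30 genes were above 0 in every aged mouse. The groups overlapped, and the list had 0 genes at an unadjusted p under 0.05 in either direction. AL mouse 14 and CR mouse 7 were the highest and CR mouse 6 the lowest, and the part of muscle RNA in the other values was not tested. Of skin and hair genes, 1 of 12 was at a mean of 1 FPKM or more, and their summed FPKM was at most 2.80 in an aged mouse. Bone was present in all 6, with osteoblast genes summing to between 1127 and 2978 FPKM and osteocyte genes to between 57.8 and 116 FPKM, in both cases lowest in AL mouse 14. No marker of this osteoblast list was listed at 0.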

How the data were processed

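RNA of 12 male mice, from whole tibiae, was sequenced by the authors. The sample labels list 4 technical repeats of each mouse, the deposited table holds a single column for it, and the sources do not say how repeats were merged. Per the labels, libraries were stranded mRNA libraries on mm10, and the submitters' processing notes name FastQC 0.11.8, MultiQC 1.6, Trim Galore 0.5.0, STAR 2.6.1, StringTie 2.1.3b and R 4.1.1. The deposited FPKM were quantile normalized by the authors and hold no counts, so depth per mouse is unknown. Quantile normalization hides changes in total mRNA.

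Values were taken as log2(FPKM + 1). Genes averaging 1 FPKM or more in 12 mice were fitted in limma 3.58.1 (R 4.3.3), with 4 group means and a mean-dependent prior variance. Calls were made at a Benjamini-Hochberg adjusted p under 0.05 over all 13590 genes. The code was tested on simulated data with the spread of the 12 mice. It recovered 46% of simulated 1.5-fold and 76% of simulated 2-fold changes, so real changes of such sizes can be missed. An exact permutation test of 3 against 3 mice cannot go below 0.1, and limma's p-values assume normal log2 values. A list value in a mouse averages the deviations of its tested genes from the 12-mouse means, and standing apart is the distance from the other 2 mice of a group. Positions come from GENCODE M21 on GRCm38, where 99.4% of identifiers were found. Motifs were sought in RefSeq promoters.

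Named were the 12 genes with the smallest p in each direction, the 4 or fewer of each list with the smallest p, the 5 smallest p per direction for the difference between ages, the 8 genes farthest above and below the group in mice 14 and 5, Plin1, Scd1, Adipoq and Tbp, which the study measured by PCR, and Pparg and Cebpa. Antisense, small RNA and unnamed genes and immunoglobulin segments were not named by size. The members, the 49 lists and the tests were chosen with earlier results of these data known. Genes named outside the rule are Irf7, Isg15, Ifit1, Ifit3, Gla, Postn, Stk10, Gm15115 and those marked as chosen after their values were seen.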

Additional observations from a re-analysis of the deposited data

How the results depend on the processing

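The 0 calls in aged mice stood in most settings and became 1 with no filter on FPKM, 193 with a quality weight per mouse and 49 without mice 14 and 5 (18 higher, 31 lower). With 1 mouse left out at a time, the count ranged from 0 to 7, and 7 was reached without CR mouse 5. For the difference between ages the count of 0 became 1 with a quality weight and 1 without mice 14 and 5, and it ranged from 0 to 1 with 1 mouse left out. At an unadjusted p under 0.05, the 611 genes higher in CR became 1023 with no filter, 347 at a mean of at least 5 FPKM, 1300 with a quality weight and 273 in the unequal-variance test on FPKM, and ranged from 461 to 787 with 1 mouse left out. The 438 lower genes became 788, 227, 1188 and 214 in the same settings, 291 in a fit of only the 6 aged mice and 685 without mice 14 and 5, and ranged from 304 to 659. The highest count of lower genes, 659, came without AL mouse 15. A pseudocount of 0.1 and size factors gave 0 adjusted calls. The fit of only the 6 aged mice gave 454 higher genes at an unadjusted p under 0.05, 0 adjusted calls and a smallest adjusted p of 0.893 (limma). The cause of these differences was not tested, apart from the number of genes tested under the 2 filters. Of 76 named genes, 75 kept their direction in each of the 20 alternatives that tested them (60 of the 76 were tested at a mean of at least 5 FPKM), and Tbp turned to -0.016 without CR mouse 6, with a range of -0.016 to 0.21 when 1 mouse was left out. No paired analysis was possible because the shared replicate numbers in the labels are technical repeats within a mouse, and the columns carry none. The paper's abstract calls the AL mice littermates of the same age, but labels and columns do not say which mice shared a litter.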

Other observations

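Some genes beside the globin clusters varied widely between mice. Within 500 kb of the alpha-globin genes on chromosome 11 and the beta-globin genes on chromosome 7, 28 genes other than globins had a mean of at least 1 FPKM. The median distance between their highest and lowest mouse was 2.88 on the log2 scale, beside 0.53 over all tested genes, and 16 of the 28 exceeded 2, beside 3.38% of all tested genes. Genes listed at 0 in most mice, such as Gm15115 below, pass this filter only through a few high mice, which favours a wide range. The tested genes were not matched to these 28 for level. On chromosome 11 the distance was 0.63, 0.51 and 0.38 for Snrnp25, Nprl3 and Mpg, chosen after their values were seen. Sh3pxd2b, a scaffold of cell invasion structures, was at 1.67 FPKM in AL mouse 14 and 1.57 FPKM in CR mouse 5, while AL mice 13 and 15 were at 24.8 and 16.4 FPKM and CR mice 6 and 7 at 16.3 and 20.4 FPKM. Its neighbour Ubtd2 was at 1.22 and 0.408 FPKM in the same pair, beside 15.2 to 19.9 FPKM in the others, and both were among the genes that set mouse 5 apart. Stk10, a lymphocyte kinase further along, chosen after its values were seen, was at 8.68 and 9.94 FPKM beside 29.3 to 34.9 FPKM. On chromosome 7 the olfactory receptor Olfr66 was listed at 0 in AL mice 13 and 14 and CR mouse 5, and at 3.97, 31.3 and 6.70 FPKM in AL mouse 15 and CR mice 6 and 7. Gm15115, an unnamed gene inside the beta-globin cluster that passed in aged mice without CR mouse 5 and was also chosen after its values were seen, was listed at 0 in all AL mice and CR mouse 5 and at 11.4 and 6.07 FPKM in CR mice 6 and 7. Globin transcripts are the most abundant of this tissue, and their part in the values of these neighbours was not tested.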
